A study of Saccharomyces cerevisiae with 6 samples.

Results

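The 31 genes described here encode the protein subunits of the RNA polymerases I, II and III of baker's yeast, Saccharomyces cerevisiae. They were chosen by their standard gene symbols, matched through locus names, and all 31 were among the 5667 S. cerevisiae loci measured. By enzyme they fall into 5 classes: 7 subunits of polymerase II only, 7 of polymerase I only, 10 of polymerase III only, 2 shared by polymerases I and III, and 5 shared by all. What was measured is the level of each subunit's mRNA in precipitates from growing and from heat-stressed cells. The precipitates were of Mex67, an mRNA export receptor, of Npl3, an mRNA-binding protein, or a control without a tagged protein. None of the arrays holds total RNA, so the amount of an mRNA in the cell and the amount bound cannot be told apart.

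The 6 groups are a control precipitation without a tagged protein (strain entry HKY36/HKY381), an Npl3 precipitation (strain HKY157) and a Mex67 precipitation (strain HKY1266), each from cells kept for 30 min at 25 °C or at 42 °C in rich YPD medium. After UV crosslinking, RNA was pulled down on c-myc antibody beads and GFP-Trap beads, also in the control groups, and the labels do not state which strain carries which tag. With 1 array a group there are no replicates, so differences are given without a test or an error. Because every protein was studied in its own strain, strain and binding cannot be told apart. The control label names a pair of strains without saying whether they were pooled, and the array columns carry only the first number. Temperature was taken from the letters S and US in the column names, read here as stressed and unstressed. Each precipitate comes from a whole culture, so fewer cells holding an mRNA and less of it per cell cannot be told apart.

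Transcription in the yeast nucleus is divided among 3 enzymes. Polymerase I makes the large ribosomal RNA precursor, polymerase II makes mRNAs, and polymerase III makes transfer RNAs and the small 5S ribosomal RNA. Each enzyme has a pair of very large subunits that form the catalytic centre, surrounded by smaller subunits, and a common core of small subunits belongs to all. Mex67 carries mature mRNA through the nuclear pore, while Npl3, of the SR-like family, joins transcripts as they are made in the nucleus.

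All values are on the log2 scale and were deposited in normalized form, so each difference is relative to the other mRNAs on the array. A gene was counted as higher or lower when it differed at least 2-fold (1 on the log2 scale) and 1 or more of the arrays compared put it above a floor. This floor, at 5.0 to 5.1, is the 95th percentile of the 4999 fission yeast (S. pombe) probe sets of an array. All 31 subunits lay above it on every array, at 8.95 to 14.35, and each was measured by 1 probe set of its own. This includes the control arrays: the subunit median at 25 °C was 12.06 there, 12.34 with Mex67 and 12.55 with Npl3. Of these fission yeast probe sets, 0 to 3 passed 2-fold between any pair of arrays compared, and 10 or 15 in differences of differences. The median over all S. cerevisiae loci was 11.13 to 11.18 on each array. HSP26, a small heat shock protein, was at 9.28 to 10.70 on the arrays read as 25 °C and at 14.62 to 15.04 on those read as 42 °C. The pheromone receptor gene STE2 was at 8.48 and 9.12 in the controls and at 11.90 to 13.85 on the other arrays. STE3, the other mating type receptor gene, ran the opposite way, at 13.41 and 12.59 in the controls and at 6.53 to 8.54 elsewhere. Every comparison with the control crosses this strain difference, and its part was not tested. The median of 27 labelling spike probe sets was 6.23, 6.21 and 5.91 on the control arrays and the Mex67 array at 25 °C, but 4.74, 4.87 and 4.67 on the Mex67 array at 42 °C and the Npl3 arrays. The 3' probe set of actin exceeded the 5' one by 0.53, 0.56 and 0.55 on the first of these and by 0.80, 1.35 and 1.10 on the others. Every comparison that sets one side of this split against the other has spike and actin values moving with it, and their part in the results was not tested.

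Across the 6 arrays, the heated Mex67 precipitate was the lowest for 19 of the 31 subunits. The highest value lay on an Npl3 array for 17 subunits, 8 at 25 °C and 9 at 42 °C. The same counts were not made over all loci, so they have no background here. The subunit genes are short, and short genes in general were lower with heat in the Mex67 precipitate and higher with Npl3, as given below. RPO26 (YPR187W), a small subunit shared by all polymerases, is an example: its control values were 13.01 at 25 °C and 12.25 at 42 °C, its Mex67 values 13.62 and 11.60 and its Npl3 values 14.18 and 14.12, each given in this order of temperature from here on. RPO21 (YDL140C), the largest polymerase II subunit, which carries the repeated C-terminal domain, had another order. It had control values of 13.25 and 13.73, Mex67 values of 13.28 and 14.35 and Npl3 values of 13.09 and 12.95, so the heated Mex67 array was its highest.

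**Figure D1:**
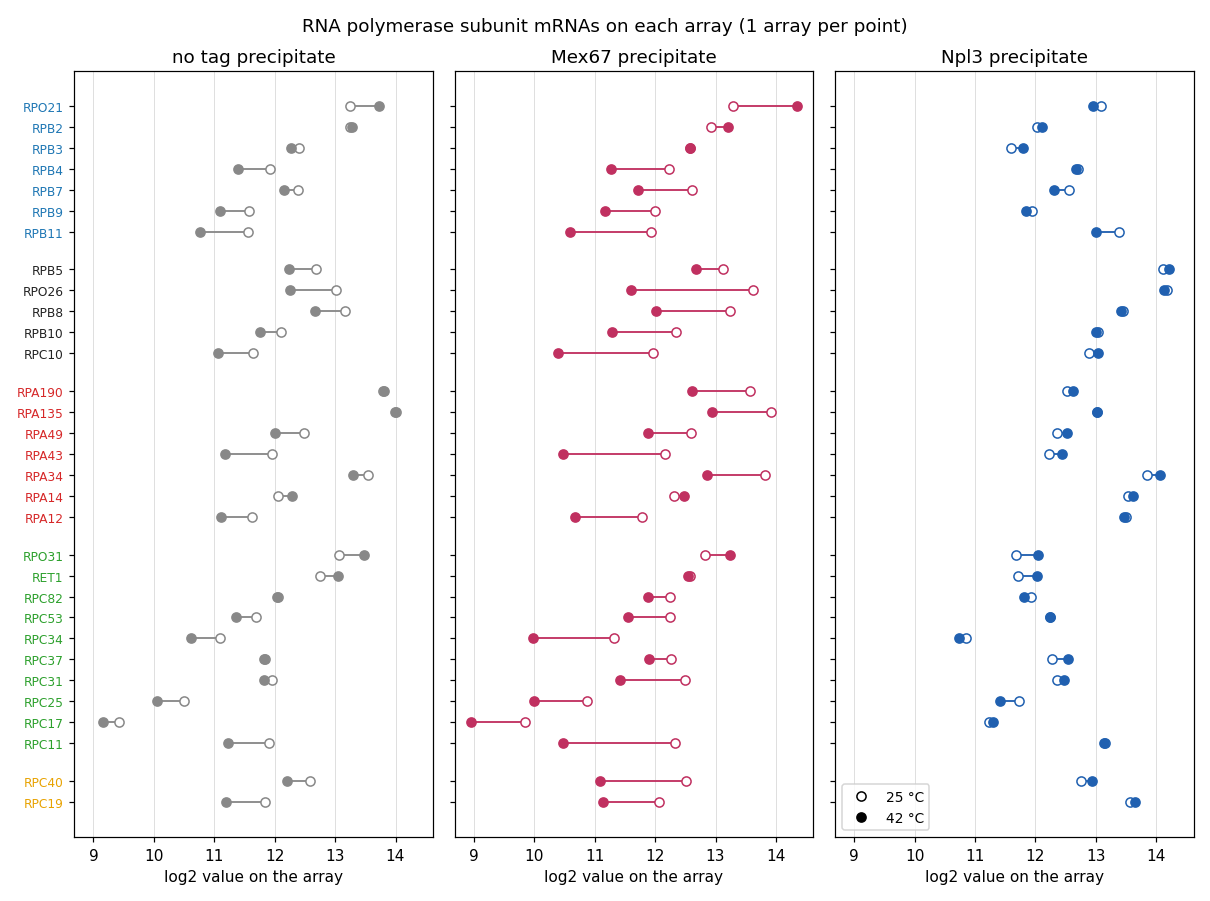
Log2 value of each subunit mRNA (rows, coloured by class and ordered by gene length within it) in the no tag, Mex67 and Npl3 precipitates, with open points for 25 °C and filled points for 42 °C and 1 array per point. Long lines to the left in the Mex67 panel mark mRNAs that were lower at 42 °C, such as RPO26 from 13.62 to 11.60, while the points of the Npl3 panel lie close together.

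The control precipitate was examined first, for the heat difference without a tagged protein. No subunit differed 2-fold: 0 of 31 were higher and 0 lower, where 6.69% of all loci were higher and 2.07% lower. The subunits still lay mostly on one side, with 25 of 31 below 0 and a median of -0.35, against 0.01 for all loci. RPB11 (YOL005C), which pairs with RPB3 in the assembly platform of polymerase II, was the lowest at -0.79, followed by RPA43 (YOR340C) at -0.78 and RPO26 at -0.77. The highest were the large subunits RPO21 at 0.48, RPO31 (YOR116C) of polymerase III at 0.42 and RET1 (YOR207C), the second-largest of polymerase III, at 0.30. All 5 subunits common to the polymerases were below 0, between -0.77 and -0.35. At 1.5-fold, a limit added after the values were seen, 5 subunits were lower and 0 higher, with 10.1% and 14.6% of all loci.

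In the Mex67 precipitate, many more subunit mRNAs were lower at 42 °C. Of the 31, 11 were at least 2-fold lower and 1 was higher, where 12.2% of all loci were lower and 15.4% higher. The median was -0.92, against 0.03 for all loci, and 26 of 31 lay below 0. A further 5 subunits lay between 0.9 and 1 in size, just short of the 2-fold line: RPB4, RPA190, RPA135 and RPA34 at -0.95 to -0.98 and RPC19 at -0.92. At 1.5-fold 22 were lower and 1 higher, with 24.1% and 27.1% of all loci. The spike median was 5.91 at 25 °C and 4.74 at 42 °C for this pair, and its part was not tested.

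The subunits common to all polymerases had the lowest median of the 5 classes, -1.22, and 4 of the 5 passed 2-fold. RPO26 was at -2.01, the lowest of the 31. RPC10 (YHR143W-A), a very small zinc-binding subunit, had control values of 11.65 and 11.07, Mex67 values of 11.97 and 10.39 and Npl3 values of 12.88 and 13.03, so that only the Mex67 pair differed 2-fold, by -1.57. RPB8 (YOR224C) was at -1.22. RPB10 (YOR210W), another small zinc-binding subunit, had control values of 12.10 and 11.75, Mex67 values of 12.34 and 11.28 and Npl3 values of 13.04 and 13.01. Its lowest value was again on the heated Mex67 array, at a difference of -1.05. RPB5 (YBR154C), which forms part of the jaw that holds the DNA ahead of the enzyme, was the exception at -0.45, the same as its value of -0.45 in the control. All 5 genes are short, at 213 to 648 bp. With the trend of all loci with gene length removed, only RPO26 at -1.54 and RPC10 at -1.43 passed 2-fold. The class median was then -0.91, beside -0.88 for the subunits shared by polymerases I and III.

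Of the polymerase I subunits, RPA43 and RPA12 (YJR063W) were at least 2-fold lower. RPA43 forms part of the stalk that the initiation factor Rrn3 contacts. It had control values of 11.96 and 11.18, Mex67 values of 12.17 and 10.47 and Npl3 values of 12.22 and 12.44, a heat difference of -1.70 with Mex67. RPA12, which takes part in RNA cleavage and termination, was at -1.11. RPA34 (YJL148W), at -0.96, and RPA49 (YNL248C), at -0.70, form a dimer on the enzyme. RPA14 (YDR156W) was the 1 polymerase I subunit above 0, at 0.18, and it was also above 0 in the control, at 0.23. Both subunits shared by polymerases I and III were below 0. RPC40 (YPR110C) had control values of 12.58 and 12.20, Mex67 values of 12.50 and 11.09 and Npl3 values of 12.75 and 12.94, and its Mex67 heat difference was -1.42. RPC19 (YNL113W), its partner in the assembly platform, was at -0.92.

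Among the 10 polymerase III subunits, 3 passed 2-fold on the low side and 0 on the high side, and the median was -0.79. RPC11 (YDR045C), the subunit needed for RNA cleavage and for termination with reinitiation, had control values of 11.91 and 11.23, Mex67 values of 12.33 and 10.47 and Npl3 values of 13.16 and 13.14. Its heat difference was -1.86 with Mex67, the second lowest of the 31. RPC34 (YNR003C) was at -1.33 and RPC31 (YNL151C) at -1.07, and the third member of their initiation subcomplex, RPC82 (YPR190C), was at -0.37. The stalk subunits RPC17 (YJL011C) and RPC25 (YKL144C) were both at -0.89. RPC53 (YDL150W) and RPC37 (YKR025W), which form another dimer, were at -0.70 and -0.37.

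The polymerase II subunits were divided, with 1 of 7 at least 2-fold lower and 1 higher. RPB11 was at -1.34, and the stalk subunits RPB4 (YJL140W) and RPB7 (YDR404C) were at -0.96 and -0.89. RPB9 (YGL070C), which contributes to start site choice and accuracy, was at -0.84. RPB3 (YIL021W), the partner of RPB11, was at 12.57 on both Mex67 arrays. RPO31 at 0.41 and RPB2 at 0.28 followed RPO21, which was the 1 subunit at least 2-fold higher, at 1.06, a value that was 0.67 after removal of the trend with gene length.

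The lower values in the heated Mex67 precipitate were found among short genes in general, and the subunit genes are short, with a median of 702 bp against 1224 bp for all loci. Among genes of up to 909 bp, 8 of 18 subunits (44.4%) were at least 2-fold lower, against 25.0% of all loci of that length, and the medians were -0.96 and -0.35. Of the 6 subunits between 909 and 1638 bp, 3 were lower, against 8.46% of such loci, with medians of -1.02 and 0.01. None of the 7 longer subunits was lower and 1 was higher, where 3.24% and 21.4% of all loci of that length were. The median of these 7 was -0.04, against 0.36 for all loci of that length. With the length trend removed the median over the 31 was -0.63, and 8 were lower and 0 higher, where 10.8% and 13.6% of all loci were. These 8 were not all among the 11 above. RPB11, RPB8, RPB10, RPA12 and RPC31 then fell short of 2-fold, at -0.91 to -0.63, while RPA190 and RPA135 passed it.

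**Figure D2:**
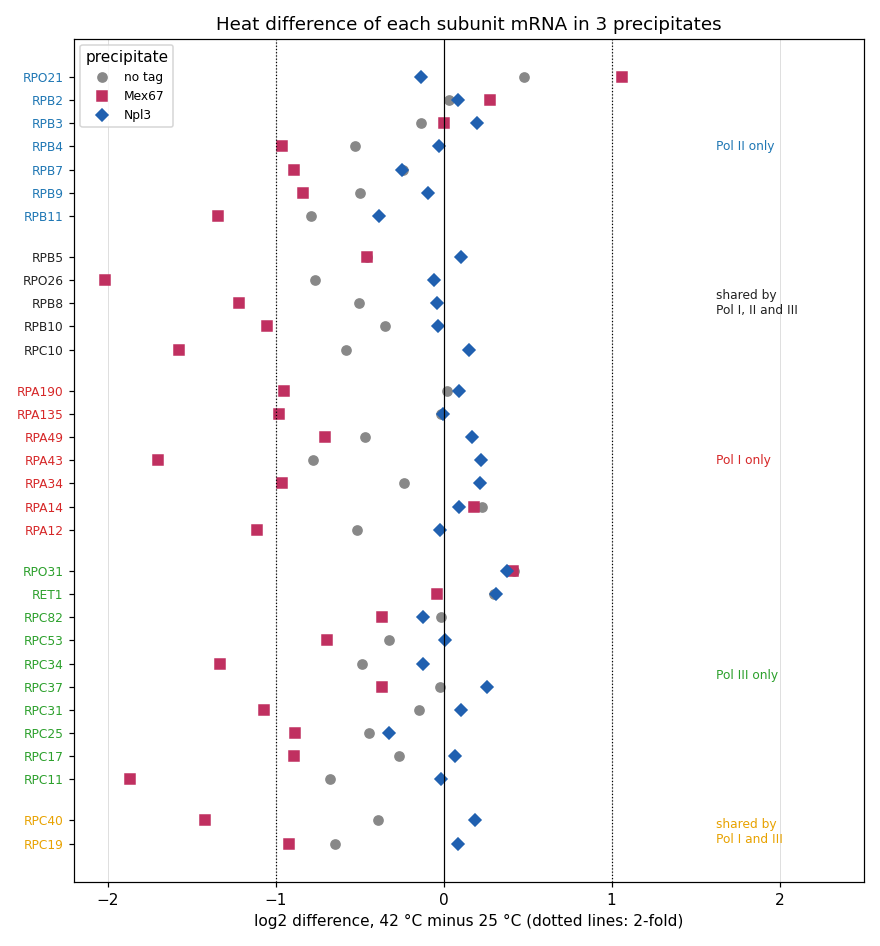
Log2 difference between 42 °C and 25 °C for each subunit mRNA (rows, by class) in the no tag (grey circles), Mex67 (red squares) and Npl3 (blue diamonds) precipitates, 1 array at each temperature. In 25 of the 31 rows the Mex67 square lies furthest to the left, and the Npl3 diamonds lie within 0.38 of 0.

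In the Npl3 precipitate the subunit mRNAs hardly differed with temperature. None of the 31 differed 2-fold, with 2.11% of all loci higher and 1.38% lower. The differences lay between -0.38 (RPB11) and 0.38 (RPO31), with a median of 0.07 and 17 of 31 above 0. After RPB11, the lowest were RPC25 at -0.33 and RPB7 at -0.25, and after RPO31, the highest were RET1 at 0.31 and RPC37 at 0.26. No subunit differed even 1.5-fold here, where 6.62% of all loci were higher and 5.75% lower at that limit. The spike medians of this pair were alike, at 4.87 and 4.67. Its actin 3' to 5' differences were 1.35 and 1.10, and their part was not tested. The 3 heat differences of a subunit come from separate arrays: 25 of 31 subunits had the lowest of them with Mex67, as had 40.5% of all loci.

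When the heat difference of the control was subtracted from that of Mex67, 3 subunits remained at least 2-fold lower and 0 were higher, where 5.40% of all loci were lower and 5.06% higher. They were RPO26 at -1.25, RPC11 at -1.19 and RPC40 at -1.03. RPC10 at -0.99 and RPA190 and RPA135, both at -0.97, lay just short of the line. In total 27 of 31 were below 0, with a median of -0.56, while that of all loci was close to 0, and at 1.5-fold 15 were lower and 0 higher, with 15.7% and 16.5% of all loci. RPO21 at 0.58, RPB2 (YOR151C) at 0.25 and RPB3 at 0.14 were the highest. Among genes of up to 909 bp, 2 of 18 subunits were 2-fold lower, against 10.9% of all loci of that length. With the length trend of all loci removed, RPO26, RPC11 and RPC40 fell short of 2-fold, at -0.99, -0.89 and -0.99. RPA190 at -1.15 and RPA135 at -1.22 then passed it, where 4.46% of all loci were lower. The same subtraction for Npl3 gave 0 subunits 2-fold higher and 0 lower, against 1.13% and 4.30% of all loci. Here 26 of 31 were above 0, with a median of 0.34, led by RPA43 at 1.00, RPC10 at 0.73 and RPC19 at 0.73. Before rounding RPA43 lay just under the 2-fold line. The lowest were RPO21 at -0.61, RPA14 at -0.14 and RPC82 at -0.11. At 1.5-fold 6 were higher and 1 lower, with 7.15% and 11.5% of all loci. Both subtractions use the same control arrays, so their values are not independent of each other.

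The 6 largest subunits, the catalytic pairs of the 3 enzymes, allow a comparison at like gene length, between 3450 and 5202 bp. In the control, the polymerase I pair was level with heat. RPA190 (YOR341W), the largest subunit of polymerase I, was at 13.79 and 13.81 there, and RPA135 (YPR010C), its partner, at 14.01 and 13.99. In the Mex67 precipitates RPA190 was at 13.57 and 12.62 and RPA135 at 13.92 and 12.94, differences of -0.95 and -0.98. In the Npl3 precipitates they were at 12.53 and 12.62 and at 13.02 on both arrays. For both mRNAs the Mex67 arrays lay apart, while the control and Npl3 pairs differed by 0.09 or less. The Mex67 pair also differed in spike median, 5.91 against 4.74, and in the actin 3' to 5' difference, 0.55 against 0.80. The Npl3 pair differed in the actin value too, 1.35 against 1.10. The part of these was not tested.

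The large subunits of the other enzymes did not share this pattern. RPB2, the second-largest of polymerase II, had control values of 13.24 and 13.27, Mex67 values of 12.92 and 13.20 and Npl3 values of 12.03 and 12.12. RPO31 had control values of 13.06 and 13.49, Mex67 values of 12.82 and 13.23 and Npl3 values of 11.67 and 12.05, so that its heat difference was 0.42, 0.41 and 0.38. RET1 was at 12.74 and 13.04, at 12.59 and 12.54, and at 11.72 and 12.03. Among all 296 loci of at least 3450 bp, the median heat difference with Mex67 was 0.39, and 6 were at or below RPA190 and 4 at or below RPA135, both counts including the gene itself. RPO21 lay less far out, with 51 of the 296 at or above it. With the length trend of all loci removed, the heat difference with Mex67 was -1.35 for RPA190 and -1.42 for RPA135.

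**Figure D3:**
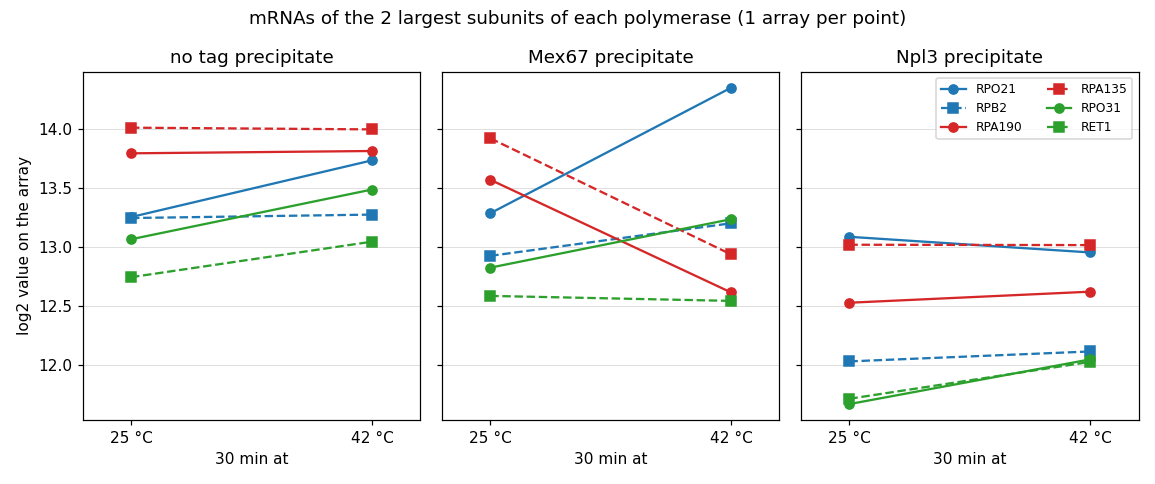
Log2 values of the mRNAs of the 2 largest subunits of polymerases II (blue), I (red) and III (green) at 25 °C and 42 °C in each precipitate, 1 array per point, with solid lines for the largest subunit and dashed lines for the second. The red lines drop in the Mex67 panel, by -0.95 and -0.98, and are level in the others, while RPO21 is higher at 42 °C with Mex67 and in the control.

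Which subunit mRNAs co-purified with Mex67 beyond the control was asked at each temperature. At 25 °C no subunit differed 2-fold, where 0.746% of all loci were higher and 0.657% lower. The differences lay between -0.32 (RPB2) and 0.60 (RPO26), with a median of 0.22, and 25 of 31 were above 0. RPC53 at 0.56 and RPC31 at 0.53 followed RPO26, and RPO31 at -0.24 and RPA190 at -0.22 followed RPB2. All 18 subunit genes of up to 909 bp were above 0, as were 1198 of the 1887 loci of that length. At 1.5-fold RPO26 alone was higher and 0 were lower, with 5.86% and 4.58% of all loci. Spike medians were alike here, at 6.23 and 5.91.

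At 42 °C the polymerase I pair lay at the low end of the subunits, with RPC40 between them. RPA190 was at -1.20, RPC40 at -1.11 and RPA135 at -1.06, and these 3 of 31 were at least 2-fold lower, where 5.79% of all loci were lower. None was higher, where 6.97% of all loci were. The median was -0.25, and 24 of 31 were below 0. Next lowest were RPC11 at -0.76, RPA43 at -0.71 and RPC10 at -0.67, and the highest were RPO21 at 0.61, RPB5 at 0.44 and RPB3 at 0.30. At 1.5-fold 9 were lower and 1 higher, with 15.9% and 18.1% of all loci. Of the 296 long loci, 5 were at or below RPA190 and 8 at or below RPA135, with a median of 0.05. These arrays cross the spike split, 6.21 against 4.74.

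Small and large subunits lay on opposite sides when Npl3 was set against the control. Of the 31, 10 were higher by 2-fold or more at 25 °C and 4 were lower, where 18.1% of all loci were higher and 15.1% lower. At 42 °C 13 were higher and 4 lower, where 18.7% of all loci were higher and 19.4% lower. All 10 of the first were among the 13 of the second, and the same 4 were lower at both temperatures. Over all loci, 805 were higher at both, 79.0% of those higher at 25 °C and 76.2% of those at 42 °C, and 687 were lower at both, 80.5% and 62.7% of those lists. The median over the subunits was 0.36 and 0.75, against -0.08 and -0.14 for all loci. At 1.5-fold 12 were higher and 6 lower at 25 °C, with 28.2% and 30.1% of all loci, and 20 and 6 at 42 °C, with 28.1% and 33.4%. Spike medians differed here too, 6.23 and 6.21 against 4.87 and 4.67.

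RPA12 and RPC19 were the highest at one temperature each. RPA12 had control values of 11.63 and 11.11, Mex67 values of 11.78 and 10.67 and Npl3 values of 13.49 and 13.47. Its difference from the control was 1.87 at 25 °C and 2.36 at 42 °C. RPC19 had control values of 11.84 and 11.19, Mex67 values of 12.06 and 11.14 and Npl3 values of 13.56 and 13.64, so that it lay 1.72 and 2.45 above the control. For both genes the Npl3 arrays lay above all other arrays.

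RPB11 followed at 1.83 and 2.23 and RPC17 at 1.81 and 2.14. RPC17 had control values of 9.42 and 9.15, Mex67 values of 9.84 and 8.95 and Npl3 values of 11.22 and 11.29. RPB5 was at 1.42 and 1.98, RPO26 at 1.16 and 1.87, RPC10 at 1.23 and 1.97 and RPC11 at 1.24 and 1.91. RPA14 was at 1.47 and 1.33, and RPC25 at 1.23 and 1.35. At 42 °C RPB4 at 1.28, RPA43 at 1.26 and RPB10 at 1.25 passed the 2-fold line as well, from 0.78, 0.26 and 0.94 at 25 °C. All of these subunits are small or of middle size, with RPA43, of 981 bp, the longest.

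The 4 subunits at least 2-fold lower were RPO31 at -1.39 and -1.44, RPA190 at -1.26 and -1.19, RPB2 at -1.21 and -1.16, and RET1 at -1.03 and -1.02. RPA135 was at -0.99 and -0.98. RPO21, the longest gene of the 31, was at -0.17 and -0.78. RPB3 was low for its length of 957 bp, at -0.81 and -0.47, while RPC34, of 954 bp, was at -0.25 and 0.12.

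Across the 31 subunits, the rank correlation between gene length and the Npl3 difference was -0.81 at 25 °C and -0.80 at 42 °C, and without the 6 largest it was -0.67 and -0.64 over 25. Over 5646 loci it was -0.43 and -0.47. These are descriptions over genes of the same arrays, which are not independent. Among loci of up to 909 bp, 10 of 18 subunits were at least 2-fold higher at 25 °C and 12 at 42 °C, against 35.1% and 38.1% of all loci of that length. Of the 6 between 909 and 1638 bp, 0 were higher at 25 °C and 1 at 42 °C, against 11.2% and 12.1% of such loci, and 0 were lower, against 16.2% and 19.4%. Of the 7 subunits over 1638 bp, 4 were lower at each temperature, against 24.6% and 32.8% of all loci of that length. These 4 are among the 6 largest subunits, whose medians were -1.12 at 25 °C and -1.09 at 42 °C. Of the 296 loci of at least 3450 bp, 138 and 162 were lower, with medians of -0.98 and -1.06. With the length trend of all loci removed, the subunit median was 0.21 at 25 °C and 0.40 at 42 °C, 1 subunit (RPC17) and 9 subunits were higher, and 0 were lower. Of all loci, 15.1% were higher and 9.75% lower at 25 °C in that setting, and 16.6% and 12.1% at 42 °C, so that the subunits higher at 25 °C were fewer than this share of 31 genes.

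**Figure D4:**
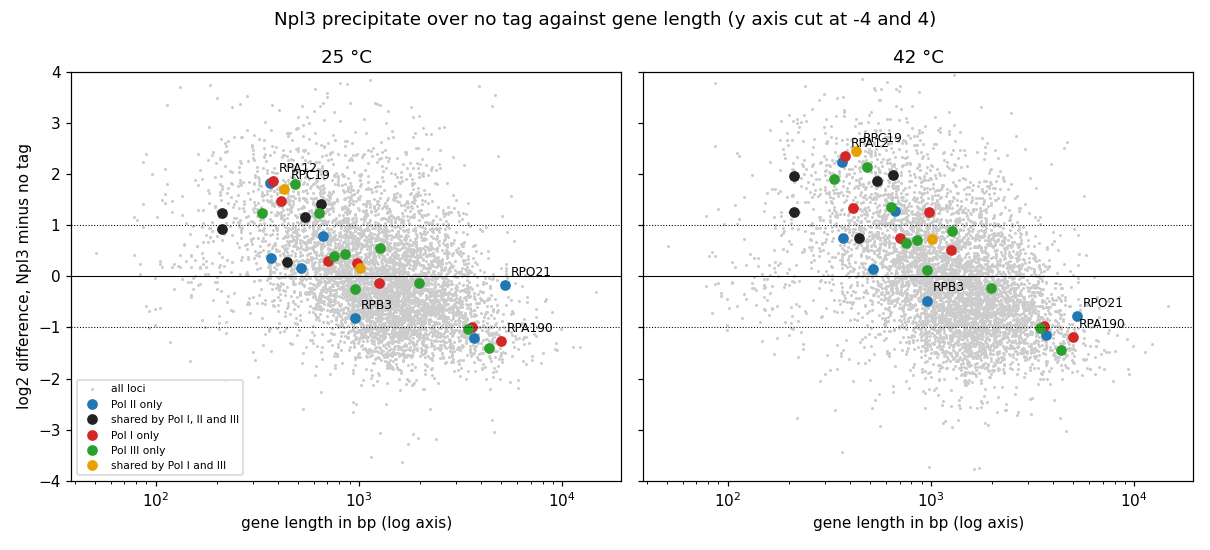
Log2 difference between the Npl3 and the no tag precipitate at 25 °C (left) and 42 °C (right) against gene length in bp on a log axis, for all loci (grey, cut at -4 and 4) and the subunits (coloured by class), 1 array a side. The subunits lie along the slope of the grey cloud, with short RPA12 at 1.87 and 2.36, long RPA190 at -1.26 and -1.19, RPB3 low for its length and RPO21 above its long neighbours.

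Set directly against Mex67, the Npl3 precipitate at 25 °C had 5 subunits at least 2-fold higher and 2 lower, where 15.2% of all loci were higher and 12.1% lower. RPA12 at 1.72, RPC19 at 1.50 and RPB11 at 1.45 were the highest, RPC17 was at 1.38 and RPA14 at 1.22, and RPO31 at -1.15 and RPA190 at -1.04 were lower. RPB3, at -0.97, was next. At 1.5-fold 10 were higher and 6 lower, with 25.2% and 27.7% of all loci. At 42 °C 17 were higher and 3 lower, where 20.2% and 22.5% of all loci were. RPA12 at 2.80, RPC11 at 2.67, RPC10 at 2.64, RPO26 at 2.52 and RPC19 at 2.501 led, and RPO21 at -1.39, RPO31 at -1.18 and RPB2 at -1.08 were the 3 lower. All 5 subunits common to the polymerases were among the 17, with RPB10 at 1.72, RPB5 at 1.54 and RPB8 at 1.39. The others were RPB11 at 2.41 and RPB4 at 1.40 of polymerase II, RPA43 at 1.97, RPA34 at 1.195 and RPA14 at 1.13 of polymerase I, and RPC40 at 1.85. Of polymerase III they were RPC17 at 2.34, RPC25 at 1.42 and RPC31 at 1.05. At 1.5-fold 23 were higher and 4 lower, with 29.3% and 35.3% of all loci. RPA190 and RPA135 were at 0.01 and 0.08 here, where the 296 long loci had a median of -1.04. Among genes of up to 909 bp, 5 of 18 subunits were higher at 25 °C and 15 at 42 °C. The shares of all loci of that length were 30.3% and 44.5%. The arrays at 25 °C cross the spike split, 5.91 against 4.87, while those at 42 °C do not, 4.74 against 4.67, and its part was not tested. These values share their arrays with the comparisons above.

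Genes that work with the polymerases were looked at beside the subunits, in 5 lists with 61 members, all measured. With heat in the Mex67 precipitate, 5 of 61 were 2-fold lower and 4 higher, where 12.2% of all loci were lower and 15.4% higher. These shares also apply to the counts of the single lists below. The median over the 61 was -0.12, against -0.92 for the subunits. With the length trend of all loci removed these medians were -0.24 and -0.63. The lists were not alike. Among the 19 general factors of polymerase II 3 were lower and 1 was higher, with TOA2, a TFIIA subunit, lowest at -1.38 and SSL2, a helicase of TFIIH, at 1.09. Among 9 polymerase III factors 0 were lower and 3 higher, led by TFC4, a TFIIIC subunit, at 1.83, and the median was 0.08. Of 9 polymerase I factors UAF30 was lower, at -1.28, and the median was -0.36. ELF1, an elongation factor gene, was at -2.19. Of the 13 elongation factors 12 were below 0, with a median of -0.27, where 2741 of all 5667 loci were below 0. The 11 assembly, import and control genes had none that differed 2-fold, and MAF1, the repressor of polymerase III, was at 0.09.

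The same 61 genes were followed through the other comparisons. With heat in the control, TFC6 at 1.19 and IWR1, a nuclear import factor of polymerase II, at 1.23 were higher. ELF1 at -1.09 and SPT5 at -1.02, both elongation factor genes, were lower. Of all loci, 6.69% were higher and 2.07% lower. With heat in the Npl3 precipitate 0 of 61 differed 2-fold, where 2.11% of all loci were higher and 1.38% lower. At 42 °C, Mex67 over the control had CCL1, a cyclin of TFIIH, at 1.11 and RAD3, another TFIIH helicase, at -1.15. Of all loci, 6.97% were higher and 5.79% lower there. With Npl3 over the control, 8 were higher and 9 lower at 25 °C, and 11 and 7 at 42 °C, with medians of 0.02 and -0.03. The shares of all loci were 18.1% and 15.1% at 25 °C and 18.7% and 19.4% at 42 °C, so these counts lay near or below the background. TFB5, a TFIIH subunit gene of 219 bp, was the highest, at 2.61 and 2.995. TFC3, of 3573 bp, was the lowest at 25 °C at -1.55, and TFC4, of 3078 bp, at 42 °C at -2.40. In the other lists, ELF1 was at 1.47 and 2.37, BDP1, a TFIIIB subunit, at 1.17 at 25 °C, and RRN9 at 1.69 and GPN3 at 1.14 at 42 °C. At the low end, SPT6 was at -1.15, TFB4 at -1.05 and RRN10 at -1.01 at 25 °C. At 42 °C SPT16 was at -1.50 and SSL2 at -1.10, and RTP1 was at -1.04 at both temperatures. Npl3 over Mex67 had 2 higher and 7 lower at 25 °C, where 15.2% and 12.1% of all loci were, and 11 and 9 at 42 °C, where 20.2% and 22.5% were. At 25 °C TFB5 at 2.40 and FPT1 at 1.58 were higher, and TFC3 at -1.70, RRN5 at -1.597, CDC73 at -1.31 and NPA3 at -1.03 were the lowest of their lists. At 42 °C TFB5 at 3.48, ELF1 at 2.98 and GPN3 at 1.16 were the highest of theirs. TFC4 at -3.08, SSL2 at -1.62, CDC73 at -1.41, NPA3 at -1.38 and RRN5 at -1.26 were the lowest. Heat with Mex67 over the control left ELF1 at -1.09 and RAD3 at -1.04, where 5.40% of all loci were lower. With Npl3 over the control TFC4 was at -1.22 and IWR1 at -1.06, where 4.30% of all loci were lower.

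**Figure D5:**
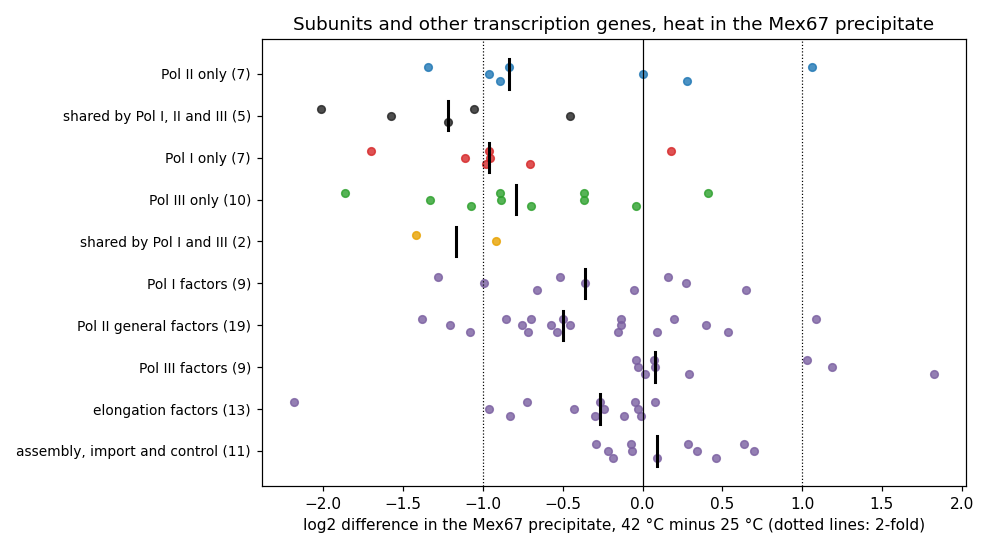
Log2 difference between 42 °C and 25 °C in the Mex67 precipitate for the subunits by class (coloured) and the other transcription gene lists (purple), 1 point a gene, with black bars for the medians and the number of genes in brackets. The medians of the subunit classes lie between -1.22 and -0.79, and those of the other lists between -0.50 and 0.09, but without the length trend (not plotted) these ranges overlap, with polymerase II subunits at -0.36 and elongation factors at -0.57.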

How the data were processed

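RNA from 6 precipitations of S. cerevisiae was measured on 1 array each. The authors deposited normalized log2 values, 1 per probe set, and per the submitters' processing notes they used the R package affy. How background, normalization and summary were done is not given in the sources used here. Per the labels' protocols, the RNA was labelled with biotin, and both a 3' labelling kit and a whole-transcript manual are named.

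Each column was assigned to its sample through the strain number and the letters S or US. Of 10928 probe sets, 5716 represent 5667 S. cerevisiae loci, and several probe sets of a locus were averaged (47 loci). Symbols and gene lengths came from the RefSeq table of assembly R64, which held 5646 loci. The length of 97.0% of these is a multiple of 3, so it is the coding length, except for genes with an intron such as RPO26, whose length includes it.

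Differences of log2 values were computed in Python 3.11.15 with pandas 2.3.3 and numpy 2.4.6. A length trend was removed as an alternative by lowess (statsmodels 0.14.6, span 0.3) on log2 length, and other alternatives changed the floor, the centring, the probe sets and the fold. The scripts were tested on simulated data. There is no depth for arrays, and their number limits the precision. The subunits and the lists of other genes were chosen with earlier results of these data known. Named in each comparison are the subunits that differed 2-fold, the 3 highest and the 3 lowest. The largest and smallest subunits are given too. Of the other lists, the highest and the lowest that differed 2-fold are named, and SPT5 and MAF1 were named after their values were seen. A planned comparison of promoter motifs was not run here, since no promoter sequence was used.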

Additional observations from a re-analysis of the deposited data

Results flagged for a closer look

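Of the 12 subunits that differed 2-fold with heat in the Mex67 precipitate, 5 had a heat difference of the opposite sign with Npl3. RPO21 was at 1.06 with Mex67 and -0.13 with Npl3, a gap of 1.19. For RPA43 the values were -1.70 and 0.22, with a gap of -1.92, and for RPC10 they were -1.57 and 0.15, with a gap of -1.73. RPC40 was at -1.42 and 0.19, with a gap of -1.60, and RPC31 at -1.07 and 0.11, with a gap of -1.18. The Npl3 values were small, and the difference between the precipitates was not tested, since each temperature has 1 array a protein. Over all loci, 341 of the 1558 that differed 2-fold with heat in the Mex67 precipitate ran the other way with Npl3. No group holds enough arrays for a single array to be set apart from the others.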

How the results depend on the processing

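The counts of subunits that differed 2-fold and their medians were recomputed for all 11 comparisons. With a higher floor (the S. cerevisiae median of each array), the highest probe set of a locus, or probe sets that match several transcripts left out, the counts stayed within 1.5 times and the medians within 0.1. Centring on the S. cerevisiae median gave 1 subunit, RPA43, higher in heat with Npl3 over the control, against 0. Centring on the S. pombe median gave 6 lower in heat with Mex67 over the control, against 3, because 3 more lay just short of the line. With the length trend removed, the median was -0.63 for heat with Mex67 (from -0.92) and -0.37 for this over the control (from -0.56). It was 0.21 and 0.40 for Npl3 over the control at 25 °C and 42 °C, and 0.68 for Npl3 over Mex67 at 42 °C. The count higher was 0 for heat with Mex67, 1 for Npl3 over the control at 25 °C, and 0 and 10 for Npl3 over Mex67 at 25 °C and 42 °C, where 13.6%, 15.1%, 13.0% and 16.6% of all loci were higher. The count lower was 0 in all 4 comparisons of Npl3 with the control or Mex67, where 8.38% or more of all loci were lower. Over all comparisons, 76 differences of single subunits passed 2-fold. Without the length trend 27 of them still did and 48 fell short. RPA14 changed sign for Npl3 over Mex67 at 42 °C, from 1.13 to -0.03 (-0.0258 before rounding). At 1.5-fold, the count lower was 5 for heat in the control, 22 with Mex67 and 15 for Mex67 over the control. It was 9 for Mex67 over the control at 42 °C, 6 for Npl3 over Mex67 at 25 °C and 1 for heat with Npl3 over the control. The count higher was 1 for Mex67 over the control at each temperature, 20 for Npl3 over the control at 42 °C, 10 for Npl3 over Mex67 at 25 °C and 6 for heat with Npl3 over the control. Over all loci, the higher floor tests fewer genes and lowered counts, for example from 869 to 508 higher for heat with Mex67, from 378 to 155 higher for heat in the control and from 42 to 21 higher for Mex67 over the control at 25 °C. Without the length trend, the loci lower with Npl3 over the control numbered 548 at 25 °C and 682 at 42 °C, from 853 and 1096. No array could be left out, since each group has 1. No paired analysis was possible because no group has replicates.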

Other observations

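The array also carries 30 probe sets for RNA polymerase subunits of S. pombe, while all samples are labelled as S. cerevisiae. Their median was 3.92 to 4.05 on the 6 arrays, close to the median of all S. pombe probe sets at 3.96 to 4.02. On each array 1 of the 30 lay above the floor, the probe set for the large polymerase II subunit. Its control values were 5.91 and 5.93, its Mex67 values 6.06 and 6.37 and its Npl3 values 5.97 and 6.11, at 25 °C and 42 °C. Its highest value was on the heated Mex67 array, which was also the highest for RPO21, the S. cerevisiae gene for the same subunit. The other arrays were not ordered alike. The heated Npl3 array was the lowest for RPO21, at 12.95, but the second highest for this probe set. Between the Mex67 arrays, the 95th percentile of the absolute difference over all S. pombe probe sets was 0.49, more than this probe set differed.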
